A study of Mus musculus with 18 samples.

Results

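Biomaterial scaffolds explanted from tumour-bearing mice were compared with scaffolds explanted from healthy mice on the same days, over 6 of the 18 droplet libraries of the study. The tumour-bearing libraries came from female BALB/cJ mice whose mammary fat pad was injected with 2000000 cells of 4T1-tdTomato-luc2 (the BALB/c mammary carcinoma 4T1 carrying a fluorescent and a luciferase label) at 7 to 8 weeks of age, and they were taken at 7, 14 and 21 days (9, 10 and 11 weeks of age by the labels). The healthy libraries came from female BALB/cJ mice of the same days and ages with no tumour cells. The implants were carried by both groups, and neither the implanted material, the site, nor the time of implantation is given in the sources used here. All other libraries of the series are from lung and spleen. Each status and day is 1 library, the number of animals behind it is not given, and p-values therefore measure the spread between libraries.

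Members were chosen by label. Barcodes with at least 200 genes and under 20% mitochondrial unique molecular identifiers (UMIs, one per captured transcript) were kept, and a barcode found in several libraries of a day was assigned to the one where its UMI total was 5 or more times that of any other. This left 7082 of 19761 barcodes of the series: 1334, 779 and 1309 in the tumour-bearing scaffolds of days 7, 14 and 21, and 747, 1634 and 1279 in the healthy ones. They held 1811388 to 4196778 UMIs per library in tumour-bearing and 2279164 to 3076663 in healthy scaffolds. The 2 scaffold libraries of a day shared 177 barcodes at day 7, 27 at day 14 and 302 at day 21 before this assignment, which removed 0.178% to 8.60% of a scaffold library's UMIs. At day 21 the assignment removed 307 of 1616 filtered barcodes from the tumour-bearing scaffold library and 579 of 1858 from the healthy one. Doublets were not removed.

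A porous implant draws in host leukocytes, first neutrophils and then monocytes and macrophages, and mammary tumours such as 4T1 release factors that drive the bone marrow to make and export neutrophils and their immature forms. Neutrophils carry large amounts of calprotectin, the heterodimer of S100a8 and S100a9, and their granule proteins are made in a fixed order as the cell matures in the marrow. Gene counts were added up within each library, and edgeR's quasi-likelihood test was run with the day as a block. Levels below are CPM, counts per 1000000 UMIs after TMM scaling, and fold changes are log2 values of tumour-bearing over healthy.

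Barcodes rich in calprotectin were more numerous in scaffolds of tumour-bearing mice at each day. Barcodes in which S100a8 and S100a9 made up 2% or more of the UMIs were 15.6% of the tumour-bearing library at day 7 (95% exact binomial interval 13.7 to 17.7), 22.3% at day 14 (19.5 to 25.4) and 51.0% at day 21 (48.2 to 53.7). In healthy scaffolds they were 6.69% at day 7 (5.01 to 8.73), 1.35% at day 14 (0.846 to 2.03) and 14.7% at day 21 (12.8 to 16.8). The day 7 value with a tumour lay just above the day 21 value without one, and the groups did not overlap. The means were 29.6% ± 18.8 and 7.58% ± 6.72 (SD, n = 3 each). The 2-sided exact permutation test gave p = 0.1, the smallest it allows for 3 against 3 libraries. It did not use the pairing by day. Intervals cover counting error only. The 2% cut makes a range and not a cell type. Few barcodes lay near it: just under it, from 1% to 2%, there were 21, 23 and 29 barcodes in the tumour-bearing and 9, 7 and 14 in the healthy libraries, and just above it, from 2% to 3%, there were 19, 9 and 24 and 6, 3 and 10. With 400 or more genes per barcode the shares were 10.6, 9.96 and 48.8% in tumour-bearing and 3.97, 0 and 2.55% in healthy scaffolds (0 of 1065 barcodes at day 14, with an exact upper bound of 0.346%), and with each barcode thinned to 300 UMIs they were 16.7, 23.1 and 51.3% and 7.55, 1.39 and 15.3%.

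**Figure D1:**
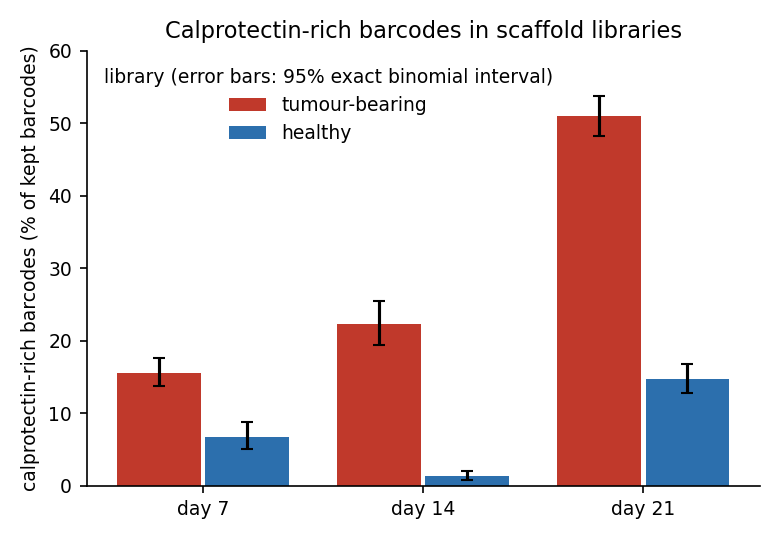
Share of kept barcodes (y axis, %) in which S100a8 and S100a9 made up 2% or more of the UMIs, by day (x axis), with tumour-bearing bars left of healthy bars and 95% exact binomial intervals. The tumour-bearing bars stand at 15.6, 22.3 and 51.0%, each above the healthy bar of its day at 6.69, 1.35 and 14.7%.

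Free RNA can give calprotectin UMIs to other cells, so barcodes with at least 2 UMIs of T cell receptor complex genes served as a background. Of these, 1 of 23, 0 of 6 and 2 of 26 fell in the range in the tumour-bearing libraries of days 7, 14 and 21, and 2 of 13, 0 of 18 and 2 of 43 in the healthy libraries. The healthy share at day 7 (6.69%) was not above that of its 13 T cell barcodes (15.4%), a background that rests on 2 barcodes, and the T cell barcodes of that library had a median of 0% calprotectin. Median depth was 797.5, 681.5 and 1194 UMIs inside the range in tumour-bearing and 751, 373 and 582.5 in healthy libraries, against 1389, 815 and 780 UMIs (tumour-bearing) and 1092, 564 and 822 UMIs (healthy) in the T cell barcodes. The neutrophil markers other than S100a8 and S100a9, which the range did not use, made up a median of 1.47, 1.27 and 3.87% of a barcode's UMIs inside the range of tumour-bearing scaffolds and 1.66, 1.21 and 1.79% inside that of healthy ones. Outside the range the medians were 0, 0 and 0.0283% in tumour-bearing and 0% in each healthy library.

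Summed over all kept barcodes, 19 genes were higher in tumour-bearing scaffolds and 7 were lower, of 11243 tested (0.169% and 0.0623%, together 26 genes or 0.231%; adjusted p under 0.05 in edgeR). The genes that rose included the neutrophil marker Ly6g, the granule genes Camp and Prtn3, 3 genes of the stefin A family, the acute-phase gene Saa3 and interferon-inducible Ifitm1, and also Selp, Lipg, Chi3l1 and Id1, which are known from other cells too. Those that fell were immunoglobulin genes, the plasmacytoid dendritic cell genes Klk1 and Ccr9, and Ly6a. All 19 were higher at 3 of 3 days, as were 13.3% of all genes tested, and 16 of them had groups that did not overlap, as had 3.42% of all genes in that direction. Genes that pass a test tend to have both, so these counts are a description. Of the 7 lower genes 4 were lower at 3 of 3 days, as were 12.0% of all genes tested. Groups did not overlap for 2 of the 7, nor for 3.13% of all genes in that direction. In bulk sums, fewer cells of a type and less RNA per cell cannot be told apart. Without the day block no gene passed with the same 14 libraries (369 at an unadjusted p under 0.05), nor with the 6 scaffold libraries alone (273 of 10227), where 12 genes passed with the block. Without day 7 there were 56 higher and 4 lower genes, without day 14 there were 9 and 5, and without day 21 there were 4 and 4, so the number of calls rests on which days are in the fit. Of the 23 called genes described below, Stfa3, Prok2 and Igj passed in each of those 3 fits, while Igha could not be tested without day 7. The day 21 pair sets much of the size: without it the log2 fold change was 5.10 for Stfa3, 4.70 for Camp, 3.76 for Lipg, 3.66 for Ifitm1, 3.62 for 1100001G20Rik, 3.53 for Saa3, 3.12 for Ly6g, 2.98 for Prtn3, 2.95 for Gm15845 and 2.59 for Id1, each lower by over 1.5-fold than with all days, and 5.89 for Selp, which was higher. Without day 14 it was larger for Stfa3 (10.93), Camp (9.17), Id1 (8.37), Lipg (7.96) and Prtn3 (7.72), and without day 7 for Gm15845 (5.53), 1100001G20Rik (5.31), Stfa2l1 (5.14) and Ifitm1 (5.11). With 400 or more genes per barcode 10 of the 16 higher genes described lost the call, Saa3, Ifitm1, BC117090 and Stfa2l1 among them, and 3 of the 7 lower ones did.

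Saa3, serum amyloid A3, an acute-phase protein made outside the liver by macrophages, fat and stroma as well as myeloid cells (chr7:46711998-46715700, GRCm38), had 20.9, 291 and 3926 CPM in tumour-bearing scaffolds of days 7, 14 and 21, against 2.87, 19.8 and 15.4 CPM in healthy scaffolds. The groups did not overlap, though the tumour-bearing value of day 7 was close to the healthy value of day 14. The log2 fold change was 5.30 ± 0.85 (SE), with adjusted p = 0.025 in edgeR. Without day 14 it was 6.63 with adjusted p = 0.082. Saa3 has close paralogs, and how shared reads were counted is not given. 1100001G20Rik, now named Wfdc21, encodes a small whey acidic protein-type secreted protein. It had 126, 478 and 3306 CPM in tumour-bearing and 18.5, 21.2 and 50.7 CPM in healthy scaffolds (log2 4.49 ± 0.74, adjusted p = 0.032). All its tumour-bearing values lay above all its healthy ones, and it did not pass without day 14 (adjusted p = 0.28) or day 21 (0.30). Ifitm1, an interferon-inducible membrane protein, had 138, 281 and 2009 CPM in tumour-bearing and 21.4, 10.1 and 49.5 CPM in healthy scaffolds (log2 4.31 ± 0.49, adjusted p = 0.0029), and without day 14 it stood at 4.07 with adjusted p = 0.060.

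The stefin A family, cysteine protease inhibitors of myeloid cells clustered on chromosome 16, had 8 members tested, all above 0, with a median log2 fold change of 5.07 against -0.01 over all genes. The 3 that passed were Stfa3, BC117090 and Stfa2l1. Stfa3 had 3.05, 32.8 and 833 CPM in tumour-bearing scaffolds, against 0, 0.922 and 0.307 CPM in healthy ones, where 3 UMIs were counted in all. Set against 2426 UMIs with a tumour, this is a ratio of 683 (95% counting interval 234 to 3316), and 2357 of the 2426 UMIs came from day 21, with adjusted p = 0.0013 in edgeR. BC117090 had 24.8, 186 and 995 CPM in tumour-bearing and 1.23, 0 and 5.84 CPM in healthy scaffolds (log2 7.24 ± 1.01, adjusted p = 0.011), and Stfa2l1 had 197, 369 and 2550 CPM against 44.3, 9.22 and 80.8 CPM (log2 4.14 ± 0.63, adjusted p = 0.018). Neither passed without day 14 (adjusted p = 0.13 and 0.20) or without day 21 (0.27 and 0.28). These genes are near copies of each other, so the split of reads among them is uncertain. Gm15845, annotated as antisense in the same stretch, rose as well (log2 4.64 ± 0.69, adjusted p = 0.017), and its reads cannot be told from those of an overlapping gene unless strand was counted, which the sources do not state. It did not pass without day 14 (adjusted p = 0.12) or day 21 (1.00). From Stfa2l1 to Stfa3 the 4 genes lie within chr16:36156811-36455392.

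The granulocyte progenitor list holds granule genes made in immature marrow cells, and all of its 11 tested members lay above 0 (median log2 3.05), and Camp and Prtn3 passed. Camp, the cathelicidin antimicrobial peptide of secondary granules, had 0.234, 173 and 612 CPM in tumour-bearing scaffolds and 0, 6.46 and 0.922 CPM in healthy ones (log2 6.62 ± 1.13, adjusted p = 0.038). At day 7 this is 1 UMI against 0, so the difference is one of days 14 and 21, and it did not pass without day 14 (adjusted p = 0.082) or day 21 (0.75). Its 296 UMIs of day 14 came from 16 barcodes, 83 of them from 1, whereas the 14 UMIs of the healthy library of that day were spread over 14 barcodes. Prtn3, the azurophil granule protease proteinase 3, had 4, 6 and 66 UMIs in tumour-bearing libraries against 0, 1 and 0 in healthy ones, a ratio of 64.2 over the days (11.2 to 2569, adjusted p = 0.022). Of the 66 UMIs of day 21, 27 lay in 1 of 22 barcodes, and the interval treats each UMI as independent. Prtn3 did not pass without day 14 (adjusted p = 0.060) or day 21 (1.00), in DESeq2 (0.10), or with shared barcodes kept in every library, where its log2 fold change was 1.17 (0.30). Camp did not pass with shared barcodes kept either (log2 4.09, adjusted p = 0.13). Ngp, Ms4a3 and Ltf of the same list had log2 values of 6.39, 4.91 and 4.53 that did not pass.

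Of 16 neutrophil markers 15 lay above 0 (median log2 3.24), and 2 passed, Ly6g and Stfa2l1. Ly6g, whose protein is the usual sorting antigen of mouse neutrophils, had 3.98, 9.36 and 76.0 CPM in tumour-bearing and 0.821, 0.461 and 2.46 CPM in healthy scaffolds (log2 4.35 ± 0.61, adjusted p = 0.011). It did not pass without day 14 (adjusted p = 0.082) or day 21 (1.00). S100a8 had 1853, 6172 and 28653 CPM in tumour-bearing and 636, 376 and 1338 CPM in healthy scaffolds, groups that did not overlap, with a log2 value of 3.39 ± 0.68 that did not pass (adjusted p = 0.087). S100a9 stood at 3.09 ± 0.63 (adjusted p = 0.091). Prok2, prokineticin 2, a secreted peptide that neutrophils make and that acts on vessels and myeloid cells, had the smallest p of all genes. It had 3.98, 41.0 and 170 CPM in tumour-bearing scaffolds, against 0, 0.461 and 2.46 CPM in healthy ones, and the log2 fold change was 6.11 ± 0.41 (adjusted p = 1.6e-04 in edgeR).

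Further genes that rose were Selp (log2 4.43 ± 0.54), the adhesion receptor P-selectin known from platelets and endothelium, Chi3l1 (3.03 ± 0.43), a chitinase-like secreted protein, the endothelial lipase gene Lipg (6.92 ± 0.79), the adhesion-family gene Ceacam10 and the transcriptional inhibitor Id1. Ceacam10 had 175 UMIs with a tumour, 161 of them at day 21, against 3 without (ratio 49.3, 16.6 to 241). Id1 had 118 with a tumour, 104 of them at day 21, against 2 without (ratio 49.9, 13.5 to 416). Adjusted p ran from 0.0029 (Ceacam10) to 0.030 (Id1) over these 5 genes, and none of the 5 passed without day 21 (adjusted p from 0.17 to 1.00). Chi3l1 also did not pass without day 14 (0.12). Of the Selp UMIs in tumour-bearing libraries 90.1% came from calprotectin-rich barcodes. The 2 platelet markers tested had a median log2 of 0.48 and the 7 endothelial ones of 0.23. The part of platelets and endothelium in the Selp difference was not tested. The other 3 higher genes, Nlrp12, Pram1 and Rdh12, are given by name only.

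**Figure D2:**
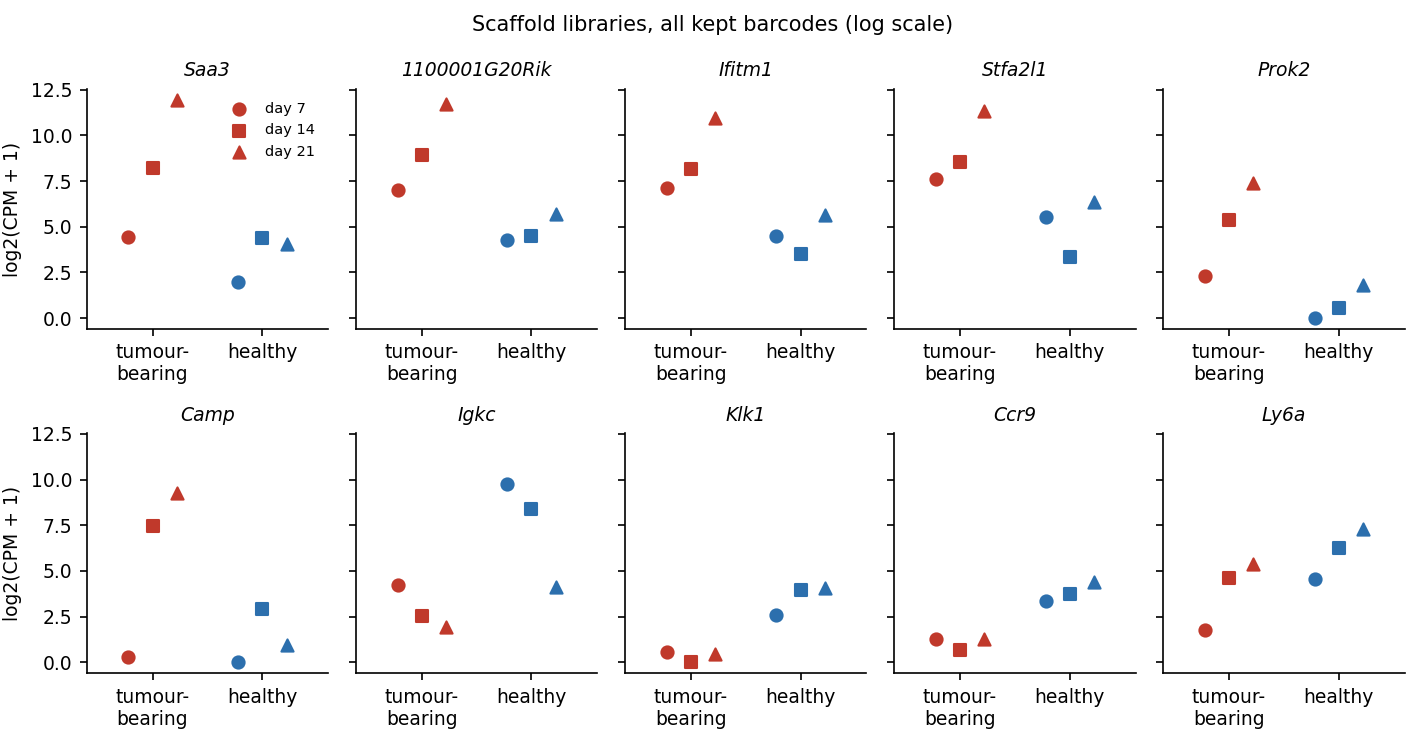
Levels of 10 called genes as log2(CPM + 1) (y axis, log scale) in each scaffold library, tumour-bearing left and healthy right, with circles, squares and triangles for days 7, 14 and 21. The tumour-bearing points of the 6 higher genes stand highest at day 21, and Klk1 and Ccr9 lie lower in all 3 tumour-bearing libraries than in any healthy one.

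The 7 lower genes were 2 plasmacytoid dendritic cell markers, 4 immunoglobulin genes and Ly6a. Plasmacytoid dendritic cells are the blood-borne sentinels known for making type I interferon, and Klk1, a tissue kallikrein transcribed in mouse plasmacytoid dendritic cells, and Ccr9, a chemokine receptor on them, are among their markers. Klk1 had 0.469, 0 and 0.354 CPM in tumour-bearing scaffolds, against 4.93, 14.8 and 16.0 CPM in healthy ones, or 3 UMIs against 96 UMIs, a ratio of 37.9 in favour of healthy (12.6 to 187, adjusted p = 0.012 in edgeR). Ccr9 had 1.41, 0.585 and 1.41 CPM in tumour-bearing and 9.03, 12.4 and 20.3 CPM in healthy scaffolds (log2 -3.39 ± 0.42, adjusted p = 0.0044). The groups did not overlap for either gene. Ccr9 UMIs came from 3, 1 and 3 barcodes in tumour-bearing and 6, 14 and 22 in healthy libraries. All 11 members tested of the plasmacytoid list lay below 0 (median log2 -1.29), and the defining surface lectin Siglech, which did not pass (log2 -2.45 ± 0.50, adjusted p = 0.091), had 4.22, 2.93 and 9.19 CPM in tumour-bearing and 24.2, 22.6 and 40.9 CPM in healthy scaffolds. Klk1 did not pass without day 14 (adjusted p = 0.12) or day 21 (0.41), nor did Ccr9 without day 21 (0.17), and neither passed when barcodes were held under 10% mitochondrial UMIs (0.29 and 0.31). Klk1 also missed the threshold with 400 or more genes per barcode (0.069).

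The immunoglobulin genes Igha, Igj (the joining chain, now Jchain), Igkv8-27 and Igkc, products of antibody-secreting plasma cells, came from few barcodes. Igha had 0 UMIs in the 3 tumour-bearing libraries and 1554, 1 and 0 in the healthy ones of days 7, 14 and 21. It was at least 613-fold lower with a tumour, set against a floor of 3 UMIs over the group, but it is a difference of day 7. Of its 1554 UMIs at day 7, 530 lay in 1 barcode. Igj had 1 UMI in tumour-bearing libraries against 736 in healthy ones, and 150 of the 156 at day 14 lay in 1 barcode. Igkv8-27 had 1 UMI in tumour-bearing libraries against 941 in healthy ones, all 941 from day 7 and 337 of them in 1 barcode. With DESeq2 Igha, Igj and Igkv8-27 did not pass (adjusted p = 1.00, 0.11 and 1.00). With all 18 libraries in the fit Igha, Igj and Igkc did not pass (0.31, 0.35 and 0.057), and with shared barcodes kept Igj did not (log2 -5.20, adjusted p = 0.12). Without day 7 the Igj value was -6.48, against -9.36 with all days. Igkc was lower at 3 of 3 days, with 17.8, 4.68 and 2.83 CPM in tumour-bearing and 855, 337 and 16.3 CPM in healthy scaffolds (log2 -5.10 ± 0.71, adjusted p = 0.011). At day 14, 677 of its 731 healthy UMIs came from 1 barcode, and at day 7, 705 of 2082. It did not pass without day 7 (adjusted p = 0.053) or day 14 (0.15), and Igkv8-27 has no difference left without day 7. Ly6a, the stem cell antigen Sca-1 of stroma, endothelium and lymphocytes, had 2.34, 23.4 and 41.4 CPM in tumour-bearing and 22.6, 75.6 and 158 CPM in healthy scaffolds, lower at each day although the groups overlap over days (log2 -2.15 ± 0.34, adjusted p = 0.022). It passed in none of the 3 fits that leave out a day (adjusted p = 0.053, 0.093 and 0.27).

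Next by p-value among lower genes that moved the same way at all 3 days, and not passing, were Clec3b (log2 -2.46), Siglech, the matrix protein periostin Postn (-1.66), Rnase6 (-1.41), Cd34 (-1.51) and Col8a1 (-2.61). Postn had 9.37, 7.02 and 15.6 CPM in tumour-bearing and 20.5, 25.8 and 62.4 CPM in healthy scaffolds. Of 13 fibroblast markers none passed and all lay below 0 (median log2 -0.95), and the list summed to 7.22, 4.75 and 11.5 UMIs per 10000 in tumour-bearing and 4.02, 13.7 and 32.3 in healthy libraries, lower with a tumour at days 14 and 21 but not at day 7. Markers of macrophages summed to 140, 138 and 188 UMIs per 10000 with a tumour and 118, 175 and 185 without. Outside the calprotectin-rich range they summed to 145, 149 and 288 with a tumour and 120, 175 and 191 without. Fibroblast markers there summed to 7.44, 5.13 and 17.1 with a tumour and 4.06, 13.7 and 33.6 without. List sums over all barcodes are shares of all UMIs. Calprotectin-rich barcodes held 4.26, 8.94 and 36.7% of these in tumour-bearing and 1.88, 0.373 and 4.07% in healthy libraries. Of 14 macrophage markers 5 lay above 0 over all barcodes (median log2 -0.14) and 8 outside the range (0.02), and none passed.

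The same comparison outside the calprotectin-rich range tested 10786 genes, of which 1 was higher (0.00927%) and 6 were lower (0.0556%; edgeR, adjusted p under 0.05). The higher gene was Ifitm1, with 36.1, 49.8 and 80.6 CPM in tumour-bearing and 6.39, 9.81 and 13.8 CPM in healthy scaffolds (log2 2.46 ± 0.26, adjusted p = 0.0013), higher at 3 of 3 days with no overlap. It kept adjusted p under 0.05 when any 1 day was left out. The neutrophil list, S100a8 and S100a9 included, summed to 9.39, 13.7 and 19.7 UMIs per 10000 outside the range in tumour-bearing and 7.76, 8.07 and 6.03 in healthy libraries, higher with a tumour at each day, and its part in the Ifitm1 difference was not tested. It was 1.37 (adjusted p = 1.00) when shared barcodes were kept in every library, 2.44 without the day block (0.40 with scaffold alone, 1.00 with the same 14 libraries) and 1.84 (0.055) under 10% mitochondrial UMIs. The 6 lower genes, Igkc, Klk1, Ccr9, Igha, Igj and Igkv8-27, were all among the 7 called over all barcodes, with log2 values of -5.22 for Igkc, -4.47 for Klk1 and -3.31 for Ccr9. Of the 19 genes higher over all barcodes, 13 could be tested here, all 13 lay above 0 and 1 was called, while 6 of the 7 lower genes were called. The 2 sums share most of their UMIs, since the range held 0.373 to 36.7% of a scaffold library's UMIs. The 6 lower genes had nearly all their UMIs outside the range. These counts are therefore a description and no second test. Saa3 stood at 4.00 ± 0.79 outside the range, with 20.01, 83.5 and 1186 CPM in tumour-bearing and 3.196, 21.1 and 12.8 CPM in healthy scaffolds, and did not pass (adjusted p = 0.21). Without the day block no gene passed here, with the same 14 libraries (149 at an unadjusted p under 0.05) or with scaffold alone (145 of 9898), where 3 passed with the block. Without day 7, day 14 and day 21 there were 1, 7 and 1 higher and 2, 5 and 4 lower genes, and Klk1 passed in none of the 3 fits (adjusted p = 0.077, 0.15 and 0.48).

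**Figure D3:**
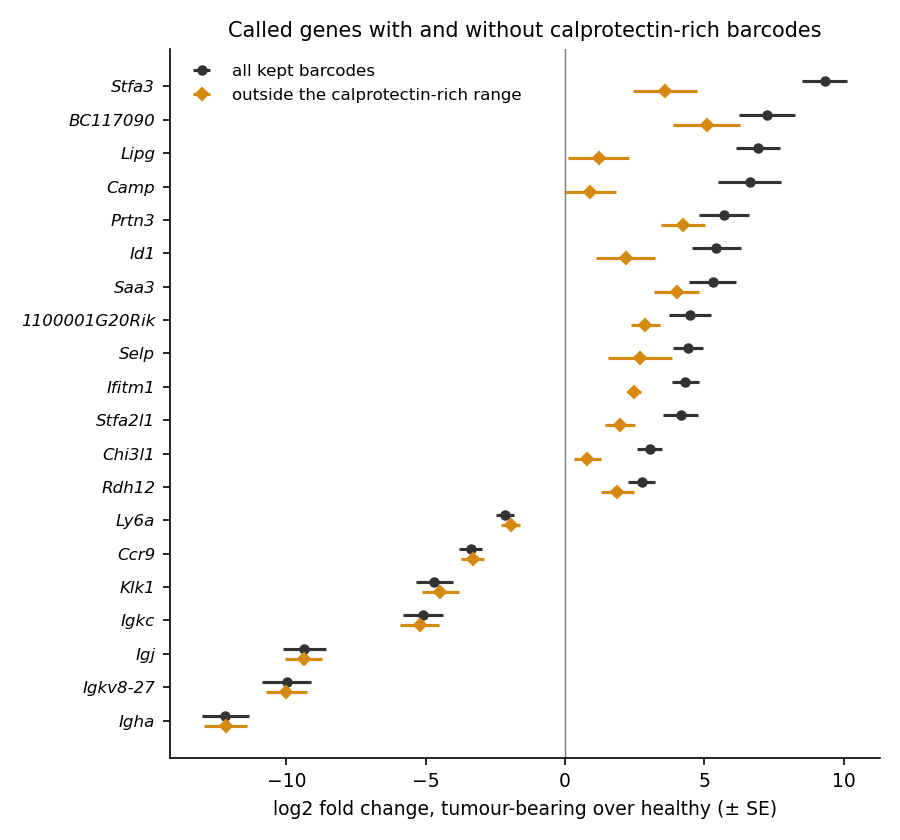
Log2 fold change of tumour-bearing over healthy scaffolds with SE (x axis) for the 20 called genes that were tested in both sums, over all kept barcodes (circles) and outside the calprotectin-rich range (diamonds). Higher genes such as Lipg lie nearer 0 outside the range (1.20) than over all barcodes (6.92), and Ccr9 lies at -3.31 outside and -3.39 over all.

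Inside the range 1882 genes were tested on the 6 scaffold libraries, and 4 were higher (0.213%) and 0 lower in edgeR, with 146 genes at an unadjusted p under 0.05. These compare calprotectin-rich barcodes of the 2 groups with each other. The range is not a cell type, and the part of a different mix of cells inside it was not tested. Saa3 UMIs were in 4 of 208, 39 of 174 and 450 of 667 barcodes of the range in tumour-bearing libraries. In healthy libraries they were in 0 of 50, 0 of 22 and 3 of 188. The 4 were Saa3 (log2 6.73 ± 0.74, adjusted p = 0.0056), Ifitm6 (4.89 ± 0.68), BC117090 (4.37 ± 0.62) and Wfdc17 (4.07 ± 0.56, adjusted p = 0.015 for these 3). Wfdc17 encodes a small secreted whey acidic protein-type protein of myeloid cells, and Ifitm6 belongs to the interferon-inducible membrane protein family of Ifitm1. Wfdc17 had 5704, 7332 and 12703 CPM in the range of tumour-bearing scaffolds and 373, 103 and 1228 CPM in that of healthy scaffolds. BC117090 had 652, 2263 and 3378 CPM against 53.3, 0 and 178 CPM in healthy scaffolds. Every tumour-bearing value of these 2 genes lay above every healthy one. The healthy values rest on 14, 1 and 131 UMIs of Wfdc17 and 2, 0 and 19 of BC117090 at days 7, 14 and 21. The share of all genes tested inside the range whose groups did not overlap is not given here. Saa3 had 77.5, 2859 and 10712 CPM in tumour-bearing and 0, 0 and 112.5 CPM in healthy scaffolds, so its groups overlapped, with the tumour-bearing value of day 7 under the healthy value of day 21.

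Saa3 had 12, 374 and 8867 UMIs inside the range of tumour-bearing scaffolds and 0, 0 and 12 UMIs inside that of healthy scaffolds, and Ifitm6 had 62, 174 and 4551 UMIs against 0, 0 and 27. The healthy range is thin, with 43635, 8492 and 125306 UMIs in all. A count of 0 there allows up to 68.8 UMIs per 1000000 at day 7 and 353 at day 14. Unscaled, Saa3 had 67.1 UMIs per 1000000 in tumour-bearing scaffolds at day 7, so that a difference was not detectable at that day's depth, while at day 14 it had 2310 and at day 21 it had 7839, against 95.8 in healthy scaffolds. Ifitm6 had 347 and 1075 UMIs per 1000000 at days 7 and 14 with a tumour. In barcodes outside the range Ifitm6 had a log2 value of -0.17 ± 0.46 (adjusted p = 1.00) and Wfdc17 had 0.62 ± 0.28 (adjusted p = 1.00). Over all barcodes Wfdc17 had 1.84 ± 0.48 (adjusted p = 0.24) and Ifitm6 3.04 ± 0.96 (adjusted p = 0.48), and neither passed. No gene passed inside the range without the day block (146 at an unadjusted p under 0.05) or without day 14 (145), while 6 higher and 1 lower passed without day 7 and 6 higher without day 21. Saa3 was the one of the 4 that passed without day 7, and none of the 4 passed without day 14 (adjusted p from 0.15 to 0.23).

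**Figure D4:**
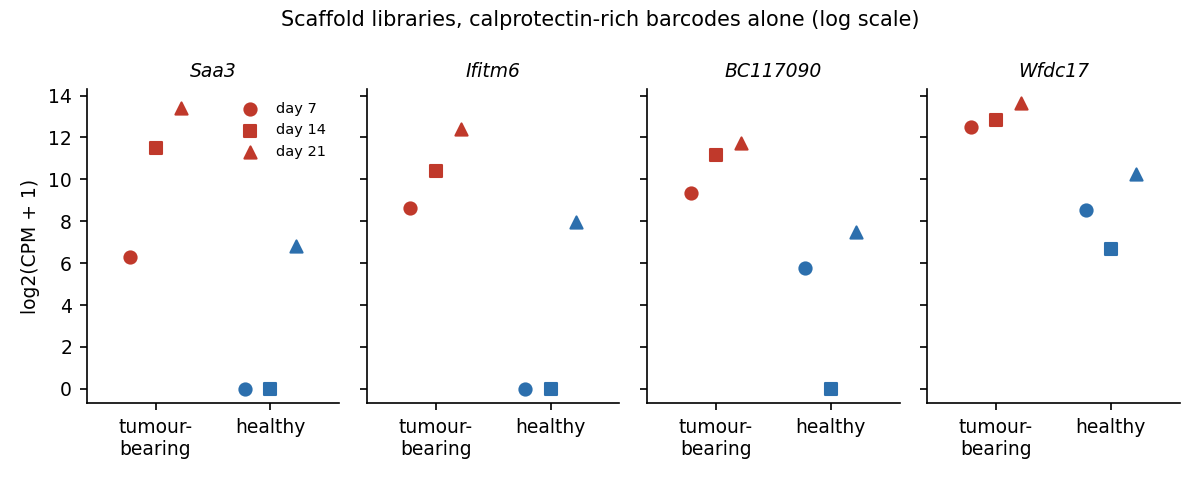
Levels inside the calprotectin-rich range as log2(CPM + 1) (y axis, log scale) of the 4 genes that passed there, tumour-bearing left and healthy right, with circles, squares and triangles for days 7, 14 and 21. Points at 0 are libraries with no UMI of the gene, in healthy ranges of 43635 and 8492 UMIs.

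Promoters of genes that passed inside the range, and of Ifitm1, which passed outside it, are given as letters of reference sequence, since these genes passed in sums that hold calprotectin-rich barcodes alone or none of them. BC117090 had no entry in the promoter table, and 16 of 25 called genes that were looked up had one. Each runs 5′ to 3′ on the strand of the gene, from 250 bases before to 50 bases after the RefSeq start (GRCm38.p6). Capitals mark matches, on either strand, to the C/EBP motif TTGCNNAA, the STAT motif TTCNNNGAA or an interferon-response-like motif GAAANNGAA. No 2 matches overlap.
Saa3, chr7:46715627-46715926, minus strand: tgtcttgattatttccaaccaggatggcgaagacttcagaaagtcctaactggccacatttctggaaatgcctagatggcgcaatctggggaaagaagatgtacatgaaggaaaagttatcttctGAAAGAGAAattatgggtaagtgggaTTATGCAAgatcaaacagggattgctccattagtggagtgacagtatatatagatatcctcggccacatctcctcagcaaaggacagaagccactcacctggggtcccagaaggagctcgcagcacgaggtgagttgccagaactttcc
Ifitm6, chr7:141016843-141017142, minus strand: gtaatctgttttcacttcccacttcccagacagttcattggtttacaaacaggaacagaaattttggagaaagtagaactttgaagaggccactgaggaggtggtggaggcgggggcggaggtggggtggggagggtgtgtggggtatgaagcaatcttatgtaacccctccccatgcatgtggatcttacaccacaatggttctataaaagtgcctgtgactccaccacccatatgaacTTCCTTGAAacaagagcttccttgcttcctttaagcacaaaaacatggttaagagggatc
Wfdc17, chr11:83703806-83704105, plus strand: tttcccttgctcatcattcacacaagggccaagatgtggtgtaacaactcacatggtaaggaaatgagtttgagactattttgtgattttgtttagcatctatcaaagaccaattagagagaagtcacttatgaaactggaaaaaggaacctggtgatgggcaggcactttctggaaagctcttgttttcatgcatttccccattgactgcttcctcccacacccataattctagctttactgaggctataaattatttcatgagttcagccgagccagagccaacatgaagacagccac
Ifitm1, chr7:140967826-140968125, plus strand: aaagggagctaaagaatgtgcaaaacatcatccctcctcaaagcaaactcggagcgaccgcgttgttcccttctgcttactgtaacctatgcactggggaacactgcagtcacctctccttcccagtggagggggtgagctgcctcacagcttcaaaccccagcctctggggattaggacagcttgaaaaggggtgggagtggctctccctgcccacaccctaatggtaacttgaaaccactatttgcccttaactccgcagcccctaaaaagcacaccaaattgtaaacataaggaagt
The Saa3 promoter held 1 C/EBP match, which is in 10.8% of all 32851 promoters in the table, and 1 interferon-response-like match, which is in 8.56%. The Ifitm6 promoter held 1 STAT match, which is in 8.30%. The windows of Wfdc17 and Ifitm1 held none of the 3. These matches describe letters only. In position, Ifitm1 and Ifitm6 lie 45874 bases apart on chromosome 7, and Wfdc17 and 1100001G20Rik lie 40672 bases apart on chromosome 11.

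Next by p-value inside the range, and not passing, were the stefin A gene BC100530 (log2 3.09 ± 0.57), 1100001G20Rik (2.43 ± 0.48), Prok2 (3.34 ± 0.70) and Ifitm1 (2.45 ± 0.52), all above the healthy level on each day (adjusted p between 0.10 and 0.18). Lower at 3 of 3 days and not passing were, among others, the cyclin Ccnd2 (-2.79 ± 0.63), the cation channel Trpm2 (-2.16 ± 0.57), the NF-kB inhibitor Nfkbie (-2.53 ± 0.67) and G0s2 (-1.47 ± 0.46), an inhibitor of triglyceride breakdown that marks mature neutrophils. G0s2 had 1867, 680 and 1613 CPM in the range of tumour-bearing scaffolds against 2986, 3189 and 4696 CPM in that of healthy ones, groups that did not overlap. Stfa2l1 (1.78 ± 0.45) and Lcn2 (2.02 ± 0.56), the neutrophil markers of smallest p inside the range, lay above 0 and did not pass. Of the 14 neutrophil markers tested inside the range 7 lay above 0 and 7 below (median log2 0.26, against 0.11 over all genes). Among the 14 are S100a8 (0.91) and S100a9 (0.55), which set the range and are no result here. The count and the median, which hold both, are a description only. The granule genes of the progenitor list summed to 0.335, 53.7 and 74.3 UMIs per 10000 inside the range of tumour-bearing scaffolds and 0, 0 and 0.160 inside that of healthy ones. The healthy sums of 0 rest on 43635 UMIs at day 7 and 8492 at day 14. With a tumour, Camp UMIs inside the range came from 10 of 174 barcodes at day 14 and 87 of 667 at day 21. Of 9 myeloid C-type lectins and related receptors 1 lay above 0 (median -0.84), and of 8 interleukin 1 family genes 2 did (median -0.67), with none passing. Il1rn, the interleukin 1 receptor antagonist, had 1783, 1116 and 106 CPM with a tumour and 3705, 2058 and 3009 CPM without (log2 -2.14 ± 0.78, adjusted p = 0.60).

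Genes of the response to type I interferon lay below 0 as a list with no member passing. Of 20 tested, 0 lay above 0 over all barcodes (median log2 -0.87, against -0.01 over all genes) and 0 outside the calprotectin-rich range (median -0.84). Mx1, a dynamin-like antiviral protein, had 14.8, 12.3 and 7.43 CPM in tumour-bearing and 44.4, 17.5 and 36.3 CPM in healthy scaffolds, groups that did not overlap (log2 -1.50 ± 0.38, adjusted p = 0.23 in edgeR). Irf7, the transcription factor that drives type I interferon genes, had 40.5, 35.7 and 15.6 CPM with a tumour and 62.8, 44.7 and 61.5 CPM without (log2 -0.96 ± 0.34, adjusted p = 0.63). Of 15 genes induced by interferon gamma 2 lay above 0 (median -0.60), and Cxcl10, the chemokine among them, had 6.56, 7.02 and 1.41 CPM with a tumour and 41.1, 3.23 and 27.7 CPM without, higher in healthy scaffolds at days 7 and 21 only (log2 -2.13 ± 0.79, adjusted p = 0.68). The plasmacytoid list shares Bst2 with the type I interferon list. Without Bst2 all 19 other interferon genes tested lay below 0 (median -0.88), and the other plasmacytoid markers summed to 2.89, 2.84 and 2.36 UMIs per 10000 in tumour-bearing and 3.78, 4.60 and 4.85 in healthy scaffolds, lower with a tumour at each day. Their part in the interferon values was not tested.

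The 9 MHC class II genes, which present antigen to helper T cells, likewise all lay below 0 over all barcodes (median log2 -0.93) and outside the range (median -0.76), with none passing. Cd74, the invariant chain, had 1655, 4005 and 1316 CPM in tumour-bearing and 1861, 7456 and 4340 CPM in healthy scaffolds (log2 -0.93 ± 0.30, adjusted p = 0.55). B cells and conventional dendritic cells carry these genes. The B cell markers other than Cd74 summed to 1.10, 1.38 and 0.572 UMIs per 10000 with a tumour and 1.14, 4.79 and 1.56 without, close at day 7 and lower at days 14 and 21, and all 10 tested lay below 0 (median log2 -0.92). The conventional dendritic cell markers summed to 2.02, 2.19 and 1.12 with a tumour and 2.04, 3.33 and 2.86 without, and all 9 tested lay below 0 (median -0.67). Their part in the class II values was not tested. Epithelial and carcinoma markers, which 4T1 cells could bring, summed to 0.267, 1.52 and 0.929 UMIs per 10000 in tumour-bearing and 0.0689, 5.00 and 0.744 in healthy scaffolds, with no member called.

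**Figure D5:**
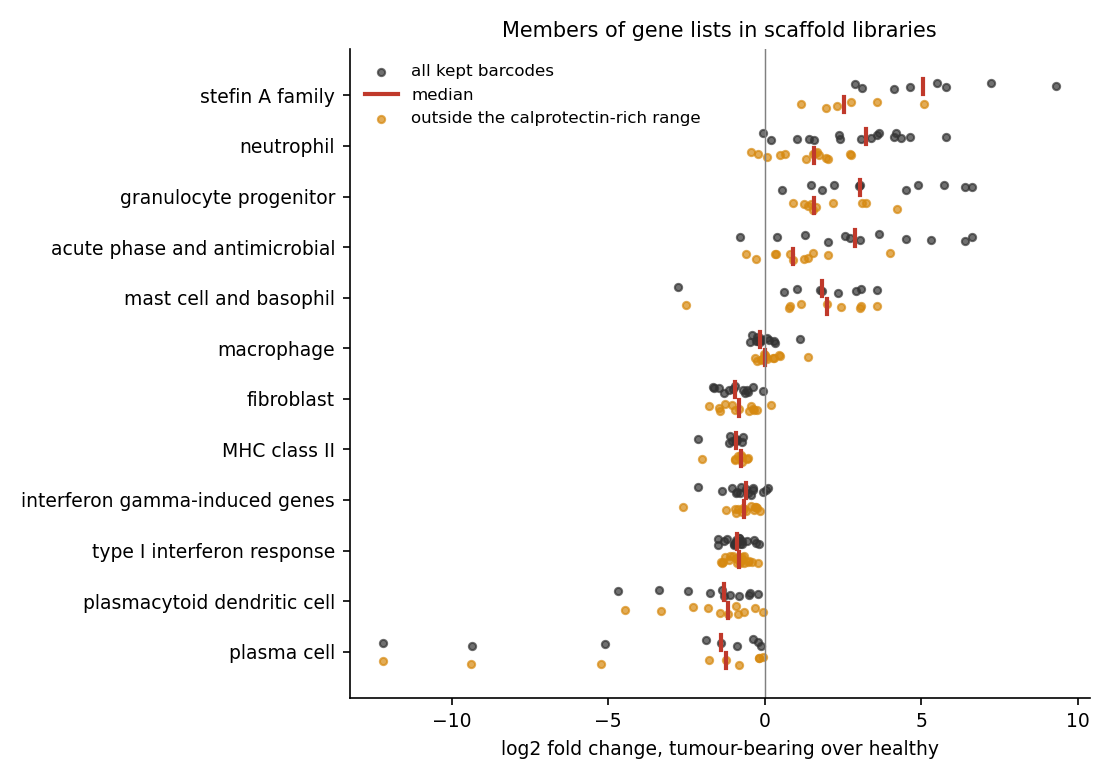
Log2 fold change of tumour-bearing over healthy scaffolds (x axis) of each tested member of 12 gene lists (rows), over all kept barcodes (dark) and outside the calprotectin-rich range (orange), with a red bar at each median. The stefin A members all lie right of 0, and the type I interferon and MHC class II members all lie left of it in both sums.

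Lung was set beside scaffold with its pairs of days 7 and 14, since at day 21 the healthy lung lost 81.4% of its UMIs to barcode assignment. All 19 genes higher in tumour-bearing scaffolds were above 0 in lung and 17 were called there, where 329 genes were higher and 16 lower of 11243 tested. Of the 7 lower genes 3 were below 0 in lung and 0 were called. The share of all genes above or below 0 in lung is not given here. Both tissues are in 1 fit that shares its estimate of the spread, so these counts are a description. Stfa3 and Prok2 had 0 UMIs in both healthy lungs. The difference between the 2 tumour effects was tested for 11243 genes in edgeR. None was higher in scaffold and 3 were lower (0.0267%), which were Igj, Igha and Hk3, and 827 had an unadjusted p under 0.05. With DESeq2, 2 were higher and 56 lower. The scaffold effect spans days 7, 14 and 21 and the lung effect days 7 and 14, so tissue and day are mixed in these differences. With the scaffold pair of day 21 left out, 0 genes were higher and 7 lower in edgeR, Igj, Igha and Hk3 among them. Hk3, hexokinase 3 of myeloid cells, had 75.7, 52.1 and 80.3 CPM in tumour-bearing and 54.2, 48.9 and 60.5 CPM in healthy scaffolds. In lung it had 66.4 and 102 CPM with a tumour at days 7 and 14, against 3.03 and 7.20 CPM without. Stfa3 (log2 difference -3.49), Saa3 (-0.64) and Camp (0.04) did not pass the test of the difference (adjusted p from 0.85 to 1.00), and neither did Ccr9 (-1.95, adjusted p = 0.51), Klk1 (-3.43, 0.48) or Id1 (4.47, 0.24), which does not show that the tissues responded alike.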

How the data were processed

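The labels give 18 Drop-seq libraries, and the 6 from scaffolds are compared here. The deposited values are UMI counts per gene and barcode. Per the submitters' processing notes, mm10 was the genome build and Seurat version 2 a named tool. No aligner, annotation, strand setting or cell calling is named there. Per the labels' protocols about 1000 bead and cell pairs were amplified per library. Members, lists and alternatives were chosen with earlier results of these data known. Of 585 list genes 570 matched a gene name of the count tables, 7 matched by another symbol and 8 matched none. Gene positions are from GENCODE vM21.

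Counts were summed per library over kept barcodes and tested with edgeR 4.0.16 (TMM, filterByExpr, quasi-likelihood, Benjamini-Hochberg under 0.05) on 14 libraries: 6 scaffold, and the lung and spleen pairs of days 7 and 14, which share the estimate of the spread. The day 21 lung and spleen pairs were left out because of lost UMIs. Terms were tissue by day and tumour within tissue (4 residual degrees of freedom). Inside the calprotectin-rich range the 6 scaffold libraries were fitted alone (2 residual degrees of freedom). Same-day libraries deviated together from their group means (correlation across genes 0.336, 0.393 and 0.471 at days 7, 14 and 21), and the labels set the day, so the day is the pair. Named genes were up to 15 called per direction with the largest change that moved alike at 3 days, filled to 10 by p-value where fewer passed, plus called list members and the 2 of smallest p per list. Named after their values were seen were S100a8, S100a9, Ngp, Ms4a3, Ltf, Nlrp12, Pram1 and Rdh12 over all barcodes, Igha, Igj and Igkv8-27 where they did not move alike at 3 days, Wfdc17 and Ifitm6 in comparisons they did not pass, and the genes besides Igj, Igha and Hk3 in the comparison with lung. DESeq2 1.42.0, other scalings, filters, barcode rules and left-out days were the alternatives. The fit was tested on simulated data.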

Additional observations from a re-analysis of the deposited data

Results flagged for a closer look

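For 3 genes the tumour effect in scaffold differed from that in lung by the test of the difference itself (edgeR, adjusted p under 0.05), each lower in scaffold. The scaffold effect included day 21 and the lung effect did not, so tissue and day are mixed in it. With the scaffold pair of day 21 left out the 3 genes kept adjusted p under 0.05 in edgeR, Hk3 at 0.049. Igj differed by log2 -21.68 ± 1.31 (adjusted p = 1.9e-04). It had 0, 1 and 0 UMIs in tumour-bearing scaffolds and 580, 156 and 0 in healthy ones at days 7, 14 and 21, and 79 and 515 UMIs in tumour-bearing lung and 0 and 0 in healthy lung at days 7 and 14. Igha differed by -19.84 ± 1.14 (adjusted p = 9.1e-04), with 261 and 0 UMIs in tumour-bearing lung and 1 and 0 in healthy lung. Both sizes depend on how counts of 0 are handled and are no measure of fold, and Igj UMIs came from 13 and 7 barcodes in healthy scaffolds of days 7 and 14, and Igha UMIs from 54 at day 7, with 530 of 1554 in 1. Igj and Igha did not pass with all 18 libraries in the fit (adjusted p = 0.32 and 0.50). Igj did not pass with shared barcodes kept (0.18), nor Igha in DESeq2 (1.00).

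Hk3 differed by -3.70 ± 0.48 (adjusted p = 0.022), with a log2 fold change of 4.03 ± 0.41 in lung. Healthy scaffolds had 48.9 to 60.5 CPM of Hk3, and healthy lung 3.03 and 7.20 CPM. The Hk3 difference did not pass with library totals alone (adjusted p = 0.051) or without day 7 or day 14 (0.10 and 0.078), and over its alternatives adjusted p reached 0.28, when shared barcodes were kept.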

How the results depend on the processing

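The share of calprotectin-rich barcodes was higher with a tumour at every day under each setting tried, by 14.9 to 28.6 percentage points when 1 day was left out and by 18.4 to 23.4 otherwise. At a cut of 5% the groups overlapped, with 10.9% in tumour-bearing scaffolds at day 7 and 11.3% in healthy ones at day 21. The exact permutation test then gave p = 0.2. Genes called over all barcodes (26) became 63 with DESeq2, 228 with no filter on low counts, 10 with 400 or more genes per barcode, 12 with scaffold libraries alone and 8 to 60 when 1 day was left out. Outside the range, 7 became 78 with no filter, 12 with all 18 libraries, 12 with shared barcodes left out, 4 under 10% mitochondrial UMIs, 3 with scaffold libraries alone and 3 to 12 without 1 day. Inside it, 4 became 21 at a cut of 5% and 0 to 7 without 1 day. The 3 genes of the difference from lung became 58 with DESeq2, 158 with no filter, 1 with all 18 libraries and 1 to 7 without 1 day. Without the replicate block, that is without the pairing by day, the count was 0 inside the range. Over all barcodes and outside the range it was 0 with scaffold libraries alone and also 0 with the same 14 libraries, a fit chosen after seeing the data. Leaving out 1 day, Igkv8-27 ranged from -10.18 to 0 on the log2 scale, with 0 without day 7, where the remaining scaffold libraries hold none of its UMIs. Of the values of single called genes over all barcodes under another setting, 247 kept direction and call and 98 kept direction and lost the call. The cause of the other shifts was not tested. Library totals without TMM moved the median of all genes to -0.10 over all barcodes and to 0.30 in the difference from lung. Depth limits the comparison inside the range, where the healthy library of day 14 holds 8492 UMIs.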

Other observations

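Mast cell genes, proteases and receptors of a tissue-resident granulocyte, were uneven between the scaffolds. Of 9 mast cell and basophil markers tested 8 lay above 0 in tumour-bearing over healthy (median log2 1.82) and none passed in edgeR. Mcpt8 was the 1 below 0 (log2 -2.77). The list summed to 5.79, 2.34 and 0.234 UMIs per 10000 in tumour-bearing and 0.121, 1.11 and 0.198 in healthy scaffolds of days 7, 14 and 21. Outside the calprotectin-rich range it summed to 6.04, 2.56 and 0.0462 with a tumour and 0.123, 1.11 and 0.203 without. Of the 69 Kit UMIs in the tumour-bearing library of day 21, 63 lay inside that range. Mcpt4, a mast cell chymase, had 540, 103 and 0 UMIs in tumour-bearing and 0, 45 and 0 in healthy libraries. Of the 540 UMIs of day 7, 386 lay in 1 of 20 barcodes.

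Immediate early genes, which respond to stimulation and to tissue dissociation, lay above 0 in 15 of 15 tested over all barcodes (median log2 0.53), in 11 of 15 outside the calprotectin-rich range (0.17) and in 7 of 15 inside it (-0.08), with none passing. Egr1 had 199, 228 and 891 CPM in tumour-bearing and 128, 86.7 and 323 CPM in healthy scaffolds.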
